A study of Homo sapiens with 6 samples.

Results

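The 6 genes described here are the transcription factors FOXM1 and MYBL2 and the MuvB core subunits LIN9, LIN37, LIN52 and LIN54. They were chosen by gene symbol, and all 6 were found among the 63186 Ensembl genes of the count table. RNA was sequenced from RBE cells, a human cell line established from a cancer of the bile ducts inside the liver (intrahepatic cholangiocarcinoma). Of the 6 cultures, 3 received a control siRNA (si-Ctrl), 3 received siRNA against CHAF1A (si-CHAF1A), and every culture was transfected with Lipofectamine 3000 at about 60% confluency. Medium was replaced 24 h after transfection and RNA taken at 48 h. CHAF1A encodes the largest part of chromatin assembly factor 1 (CAF-1), a complex that deposits histones behind the replication fork, and the comparison asks what its loss does to the transcriptome. All cultures are of 1 line, the sources used here do not give the sequence or number of the siRNAs, and each difference is therefore between these transfections.

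MuvB is a small protein complex that sits at cell cycle promoters and changes partners as the cycle proceeds. In resting cells it joins the pocket protein RBL2 (p130), E2F4 and a DP protein in the repressor complex DREAM. In S phase it leaves that complex and takes up MYBL2 (B-MYB), and in G2 it brings in FOXM1, so that the genes of mitosis are switched on. LIN54 is the subunit that contacts DNA, at a short element called the cell cycle genes homology region (CHR), and LIN52 is the subunit through which MuvB holds either the pocket protein or MYBL2. The fifth core subunit, RBBP4, is a histone-binding protein that is also a subunit of CAF-1. FOXM1 and MYBL2 are themselves cell cycle genes and are high in dividing tumour cells.

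The promoter windows below are marked for the CHR and for other promoter words that were searched for. They come from RefSeq (GRCh38.p14) and run from 250 bases before to 50 bases after a transcript start. Each is written 5′ to 3′ along the gene. Capitals mark the words found by search on both strands: CHR (TTTGAA or TTCGAA), the CCAAT box, and GGCGGGA, a core of the E2F site. The window of MYBL2 is shown because MYBL2 rose and held no CHR word. That of LIN9 is a MuvB subunit's own promoter with CHR words. The gene's other windows held neither a CHR word nor GGCGGGA. Those of CCNB2 and CEP55 are shown as late cell cycle genes whose transcripts fell. They lie at chr20:43666864-43667163 (plus strand), chr1:226309115-226309414 (minus strand), chr15:59104896-59105195 (plus strand) and chr10:93496362-93496661 (plus strand).
MYBL2: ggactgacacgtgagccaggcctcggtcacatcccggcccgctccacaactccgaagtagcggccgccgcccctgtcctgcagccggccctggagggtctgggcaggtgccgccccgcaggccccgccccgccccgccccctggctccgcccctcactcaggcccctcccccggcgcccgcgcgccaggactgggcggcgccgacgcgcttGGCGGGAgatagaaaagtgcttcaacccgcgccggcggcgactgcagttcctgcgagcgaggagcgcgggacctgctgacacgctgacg
LIN9: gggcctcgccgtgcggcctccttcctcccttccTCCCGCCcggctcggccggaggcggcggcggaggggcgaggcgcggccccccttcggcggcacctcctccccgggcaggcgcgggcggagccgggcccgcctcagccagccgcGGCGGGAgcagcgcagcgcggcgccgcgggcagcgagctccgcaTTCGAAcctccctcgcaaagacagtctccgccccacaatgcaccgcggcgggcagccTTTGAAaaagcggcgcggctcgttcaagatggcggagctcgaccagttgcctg
CCNB2: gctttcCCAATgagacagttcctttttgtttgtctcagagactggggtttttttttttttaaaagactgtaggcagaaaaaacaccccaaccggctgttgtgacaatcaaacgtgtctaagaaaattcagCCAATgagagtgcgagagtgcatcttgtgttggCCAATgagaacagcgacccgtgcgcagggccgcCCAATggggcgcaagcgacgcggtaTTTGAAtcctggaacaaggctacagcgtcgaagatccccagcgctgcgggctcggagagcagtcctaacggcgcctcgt
CEP55: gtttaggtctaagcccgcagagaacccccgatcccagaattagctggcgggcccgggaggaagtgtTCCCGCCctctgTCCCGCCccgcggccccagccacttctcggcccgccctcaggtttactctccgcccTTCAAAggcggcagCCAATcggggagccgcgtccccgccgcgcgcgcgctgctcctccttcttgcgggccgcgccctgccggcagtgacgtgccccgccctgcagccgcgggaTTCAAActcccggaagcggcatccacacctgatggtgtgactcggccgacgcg

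In the MYBL2 window the E2F word began 39 bases before the start (position -39). The CCNB2 window held a CHR at position -29, with CCAAT boxes at -244, -120, -87 and -54. The CEP55 window held CHR words at -116 and -3, a CCAAT box at -102 and E2F words at -184 and -172. The LIN9 window shown held CHR words at -60 and -3, E2F words at -217 and -104, and no CCAAT box.

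The libraries held 15643381 to 20918997 counts. CHAF1A, the targeted gene, stood at 51.5, 59.8 and 51.0 CPM (read counts scaled to library size, with TMM factors) in si-Ctrl 1, 2 and 3 and at 11.1, 12.9 and 11.2 CPM in si-CHAF1A 1, 2 and 3, so the groups matched their labels. The 4 biliary epithelial markers KRT7, KRT19, EPCAM and SOX9 were all measured, with a summed level of 1677 to 2037 CPM in control and 2279 to 2470 CPM in knockdown libraries. KRT19 (log2 fold change 0.65) and EPCAM (0.32) were higher, SOX9 (-0.26) was lower and KRT7 (0.19) did not pass the test. Markers of other cell types (ALB, PTPRC, PECAM1, COL1A1, ACTA2) summed to 16.7 to 19.4 CPM in control and 29.6 to 41.6 CPM in knockdown libraries. Among them ACTA2 rose from 6.19 ± 0.686 to 14.8 ± 0.915 CPM, COL1A1 was at 8.42 ± 1.44 and 15.5 ± 6.83 CPM (edgeR adjusted p = 0.0717) and PECAM1 at 2.35 ± 0.625 and 3.27 ± 0.297 CPM (edgeR adjusted p = 0.111). ALB was at most 0.573 CPM and PTPRC at most 0.768 CPM in any library, and the part of these markers in the results was not tested. One control library, si-Ctrl 2, stood apart from the other controls on the second principal component (-29.6 against 14.9 and 13.9), and values without it are given where they alter a result.

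The activators moved in opposite directions. FOXM1 (ENSG00000111206, chromosome 12, 2857681 to 2877155, minus strand), the forkhead factor that completes the G2 switch, was at 115, 129.9 and 119 CPM in si-Ctrl 1, 2 and 3 and at 103, 100.3 and 101 CPM in si-CHAF1A 1, 2 and 3. Each knockdown library lay below each control library. The mean went from 121 ± 7.57 to 101 ± 1.74 CPM (SD, n = 3 each), a fall in all 3 libraries (edgeR log2 fold change -0.26 with SE 0.07, adjusted p = 0.0063, Benjamini-Hochberg over 15911 genes). Without si-Ctrl 2, its highest control, the log2 fold change was -0.22. FOXM1 is a cell cycle gene, and in bulk RNA fewer cells in the stages that express such a gene cannot be told apart from less of its RNA per cell.

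MYBL2 (ENSG00000101057, chromosome 20, 43667019 to 43716496, plus strand), the MYB-type activator that binds MuvB in S phase, was at 152, 178 and 163 CPM in si-Ctrl 1, 2 and 3. It was at 211, 212 and 209 CPM in si-CHAF1A 1, 2 and 3, above every control. The mean rose 1.28-fold, from 164 ± 13.2 to 211 ± 1.70 CPM (edgeR log2 fold change 0.36 with SE 0.07, adjusted p = 0.000686), and the log2 fold change was 0.41 without si-Ctrl 2.

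As a result the balance of the activators shifted within each library. FOXM1 counts were 0.758, 0.729 and 0.732 of the MYBL2 counts in the controls and 0.491, 0.473 and 0.482 of them in the knockdown libraries. On the log2 scale this ratio went from -0.44 ± 0.03 to -1.05 ± 0.03 (SD, n = 3 each), a change of -0.62. The groups had to separate on this ratio, since FOXM1 was lower and MYBL2 higher in each knockdown library, so it is given as a size with no test. Library scaling cancels in this ratio.

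**Figure D1:**
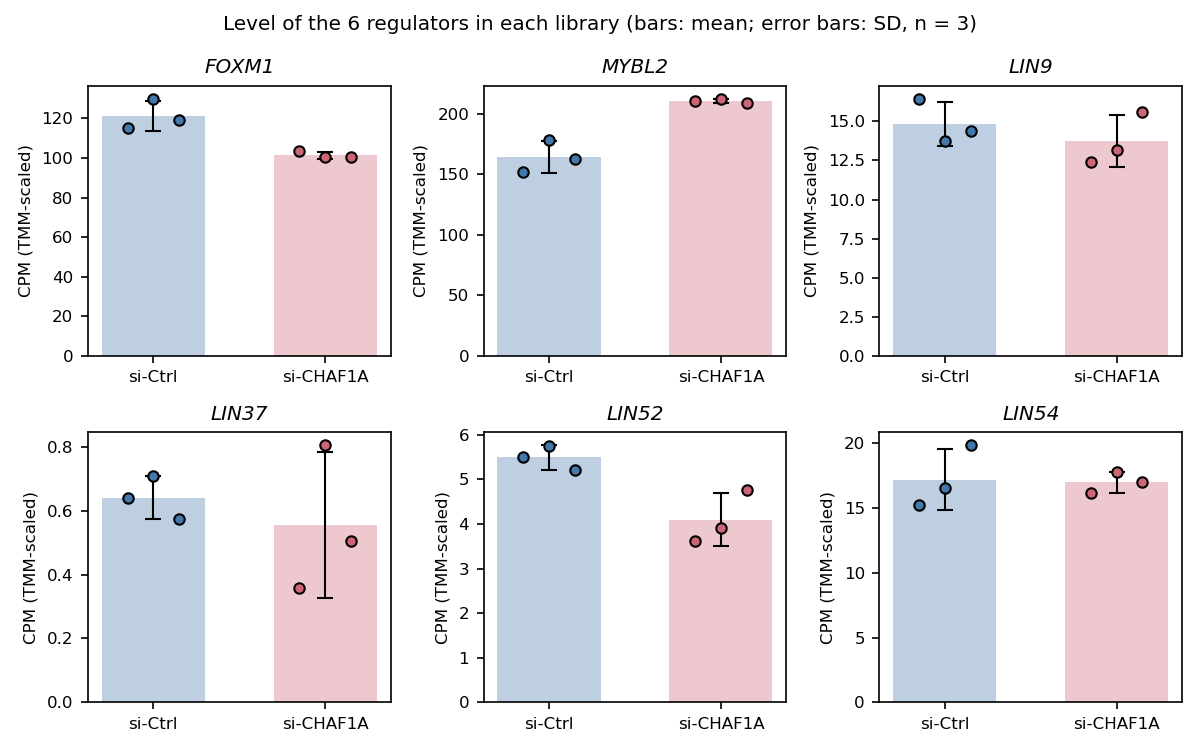
Level of each of the 6 regulators in CPM (y axis, from 0) for the 3 si-Ctrl and the 3 si-CHAF1A libraries; points are libraries, bars the mean and error bars the SD. FOXM1 falls from 121 to 101 CPM and MYBL2 rises from 164 to 211 CPM without overlap, while LIN9, LIN37 and LIN54 overlap between the groups.

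None of the 4 MuvB core subunits among the members passed the test. LIN9 (ENSG00000183814, chromosome 1, 226231149 to 226309869), the subunit needed for the activating complex with MYBL2, was at 16.4, 13.7 and 14.4 CPM in the controls and 12.4, 13.2 and 15.6 CPM in the knockdown libraries. The groups overlapped, and the log2 fold change was -0.11 (95% interval -0.36 to 0.14, edgeR adjusted p = 0.497). LIN54 (ENSG00000189308, chromosome 4, 82909973 to 83012926), the DNA-binding subunit, was at 15.2, 16.5 and 19.8 CPM against 16.2, 17.8 and 17.0 CPM, again with overlap. Its log2 fold change was -0.02 (95% interval -0.25 to 0.22, edgeR adjusted p = 0.915).

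LIN52 (ENSG00000205659, chromosome 14, 74084796 to 74201235), the subunit that docks the pocket protein, was at 5.50, 5.76 and 5.22 CPM in the controls and 3.63, 3.91 and 4.77 CPM in the knockdown libraries. All knockdown libraries lay below all controls, at 61 to 114 counts per library. The log2 fold change of -0.42 (SE 0.17, 95% interval -0.78 to -0.06) missed the threshold over all genes (edgeR adjusted p = 0.0608). It passed without si-CHAF1A 3, the highest knockdown library (log2 fold change -0.54, edgeR adjusted p = 0.0447). In 9 of 10 alternative fits LIN52 did not pass (edgeR or DESeq2 adjusted p up to 0.194). LIN37 (ENSG00000267796, chromosome 19, 35748361 to 35754519), which is needed for repression by DREAM, had only 6 to 14 counts per library. Its levels were 0.640, 0.707 and 0.573 CPM in the controls and 0.357, 0.804 and 0.505 CPM in the knockdown libraries, and the interval of its log2 fold change ran from -1.11 to 0.71 (edgeR adjusted p = 0.746). No change was detectable at so few counts. In GENCODE 29, 54.0% of LIN37's exon bases are also exon bases of other genes, 26.7% on the same strand, so reads there could have been lost in counting, which was not tested.

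In all, 1 of the 6 members was lower and 1 higher, where 19.3% of the 15911 tested genes were lower and 18.5% higher by the same test. The groups did not overlap for 2 members that were below their controls and for 1 above (24.1% and 24.1% of all tested genes). These shares are near those of all genes, so the count by itself does not set the members apart. The median log2 fold change of the 6 was -0.16, against 0.00 for all tested genes.

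Levels between genes can be compared only per length, here as RPKM (CPM per kilobase of all annotated exons joined). In the controls the order was MYBL2 at 59.2 ± 4.74, FOXM1 at 24.8 ± 1.55, RBBP4 at 12.8 ± 0.635, LIN9 at 3.35 ± 0.317, LIN54 at 2.54 ± 0.352, LIN52 at 1.49 ± 0.0734 and LIN37 at 0.227 ± 0.0238 RPKM. The closest neighbours were LIN9, at 3.09 to 3.70 RPKM, and LIN54, at 2.25 to 2.93 RPKM, and no neighbours in this order overlapped in the 3 control libraries. The order was the same in the knockdown libraries. The activators were thus several-fold above the LIN subunits in transcript level per length in each group. Exon bases shared with other genes (54.0% for LIN37, 18.0% for RBBP4, 15.9% for FOXM1) may have altered these levels, which was not tested.

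Of 8 listed partners in DREAM and MuvB, 2 were higher, 0 lower and 6 not past the test, where 18.5% of all tested genes were higher and 19.3% lower. The number that rose is near what that share gives and does not set the partners apart. Their median log2 fold change was -0.01 (0 lower by DESeq2 as well; E2F5 was the only listed partner with an unadjusted p under 0.05 and a lower level). RBBP4, the subunit that MuvB shares with CAF-1, was at 125, 114 and 124 CPM in the controls and 139, 149 and 142 CPM in the knockdown libraries, a rise of 0.24 on the log2 scale (edgeR adjusted p = 0.00869). RBL2, the pocket protein of DREAM, was at 58.8, 45.6 and 54.5 CPM against 65.2, 65.8 and 64.6 CPM and rose by 0.30 (edgeR adjusted p = 0.0117). Both calls were lost without si-CHAF1A 2 (edgeR adjusted p = 0.0617 for RBBP4 and 0.054 for RBL2).

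The pocket protein RBL1 (p107) stood at a log2 fold change of -0.02, E2F4 at -0.01, TFDP1 at -0.01, TFDP2 at 0.12, and DYRK1A, the kinase that phosphorylates LIN52 to assemble DREAM, at -0.05. E2F5 was at 36.0, 31.9 and 35.8 CPM in the controls and 30.6, 30.1 and 28.2 CPM in the knockdown libraries, without overlap. Its log2 fold change of -0.22 just missed the threshold (edgeR adjusted p = 0.0521) and passed without si-Ctrl 2 (-0.28, edgeR adjusted p = 0.00278). In 9 of 10 alternative fits E2F5 did not pass (edgeR or DESeq2 adjusted p up to 0.192).

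**Figure D2:**
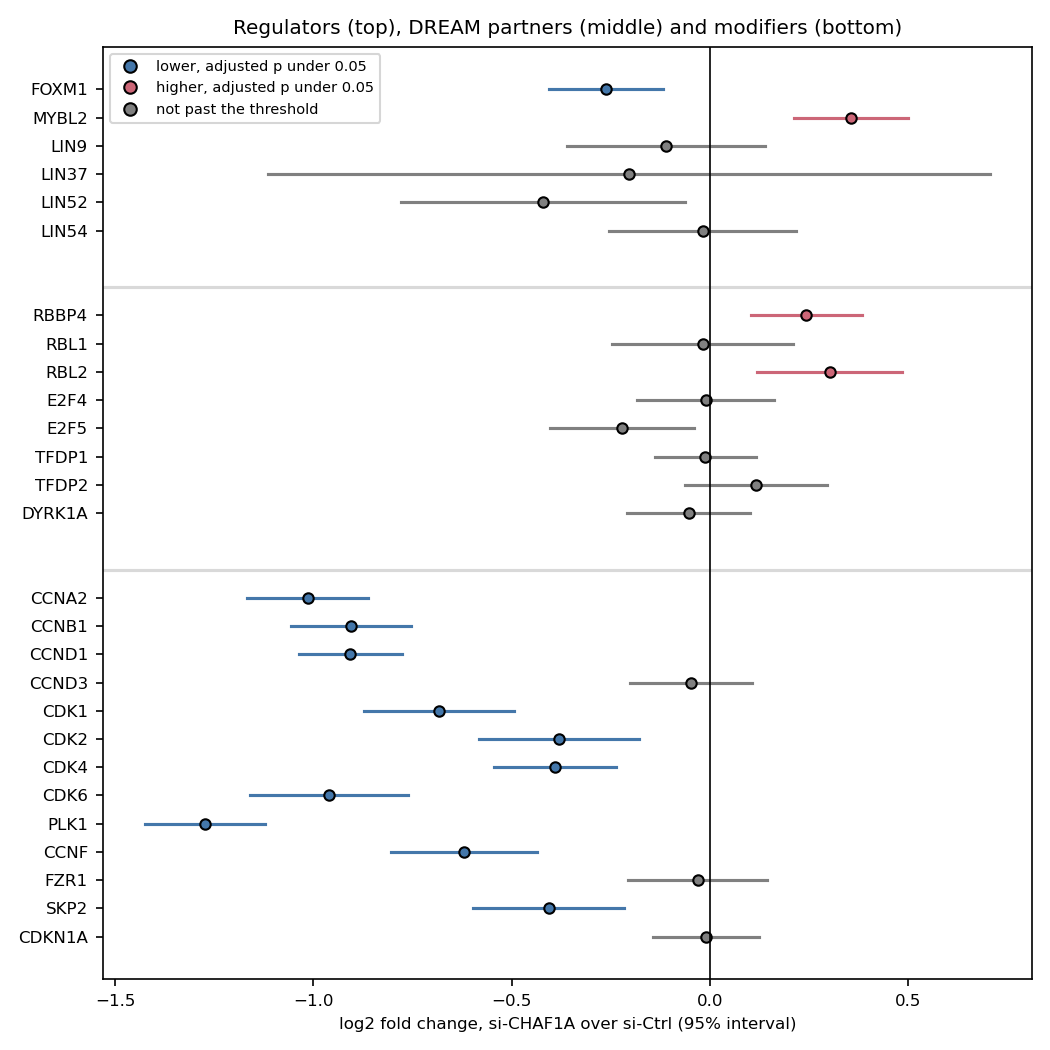
Log2 fold change of si-CHAF1A over si-Ctrl (x axis) with its 95% interval for the 6 regulators, the 8 DREAM and MuvB partners and 13 genes that act on them; blue is lower and red higher at an adjusted p under 0.05, grey is not past it. FOXM1 and MYBL2 lie on opposite sides of 0 (-0.26 and 0.36), and 10 of the 13 genes at the bottom are lower.

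Most genes whose products act on these regulators fell. Of the 13 reported cyclins, kinases, ligase factors and inhibitors, 10 were lower and 3 did not pass the test, where 19.3% of all tested genes were lower. The median log2 fold change was -0.62. Among the 9 that are not also in the list of late cell cycle genes below, 6 were lower. Cyclin A2 (CCNA2), whose kinase complex phosphorylates both FOXM1 and MYBL2, fell from 70.1 ± 1.94 to 34.7 ± 0.857 CPM (2.02-fold, edgeR adjusted p = 3.4e-08). PLK1, a mitotic kinase that FOXM1 activates and that phosphorylates FOXM1 in turn, was at 134, 153 and 151 CPM in the controls and 60.0, 60.0 and 61.3 CPM in the knockdown libraries.

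Cyclin D1 (CCND1) and its kinases CDK4 and CDK6, which phosphorylate FOXM1 and the pocket proteins in G1, also fell. CCND1 went from 1378 ± 52.0 to 735 ± 31.3 CPM (edgeR log2 fold change -0.91 with SE 0.06, adjusted p = 1.85e-08), CDK6 fell by 0.96 and CDK4 by 0.39 on the log2 scale. Cyclin B1 (CCNB1) fell by 0.90 (edgeR adjusted p = 1.23e-07), CDK1 by 0.68 and CDK2 by 0.38 on that scale. CCNF, the F-box cyclin that restrains MYBL2, fell by 0.62, and SKP2, an F-box protein and FOXM1 target, by 0.41. CDKN1A, an inhibitor of cyclin-dependent kinases, stood at a log2 fold change of -0.01 (95% interval -0.14 to 0.12), cyclin D3 (CCND3) at -0.05 and FZR1, the APC/C activator that marks FOXM1 for destruction, at -0.03.

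The late cell cycle genes, those that MuvB, MYBL2 and FOXM1 switch on, fell almost throughout. Of 47 listed genes 46 passed the filter on low counts, and 44 were lower and 0 higher, against 19.3% of all tested genes lower. The median log2 fold change was -0.89, and 18 were lower by at least 2-fold, as were 1.46% of all tested genes. Mitosis genes were known to be lower in these libraries when the list was drawn up, so its direction is not independent evidence.

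CEP55, which acts at abscission, had the smallest adjusted p of the list. It was at 139, 127 and 139 CPM in the controls and 32.0, 35.4 and 37.0 CPM in the knockdown libraries (edgeR log2 fold change -1.96 with SE 0.08, adjusted p = 5.29e-11). The mitotic kinase AURKA was at 138, 139 and 146 CPM against 53.4, 50.4 and 50.6 CPM (log2 fold change -1.46). PLK1 followed at -1.27, the spindle assembly factor TPX2 at -1.08, CCNA2 at -1.01 and the APC/C activator CDC20 at -1.12, all with separate groups. For CEP55 and AURKA the knockdown libraries stood at about the same level as each other, far below the controls.

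The other well-known targets in the list included 2 that did not pass the test. BIRC5 (survivin) was at 73.5, 82.9 and 78.9 CPM in the controls and 77.7, 74.6 and 83.5 CPM in the knockdown libraries, with a log2 fold change of 0.00 (95% interval -0.15 to 0.16, edgeR adjusted p = 0.982). The phosphatase CDC25B was at 98.3, 112 and 95.2 CPM against 113, 116 and 111 CPM, for which edgeR gave a log2 fold change of 0.16 (adjusted p = 0.104). Without si-Ctrl 2 it was 0.22 and passed (edgeR adjusted p = 0.00027). In 9 of 10 alternative fits CDC25B did not pass (edgeR or DESeq2 adjusted p up to 0.366). AURKB, the kinase partner of BIRC5, fell by 0.26 on the log2 scale (edgeR adjusted p = 0.0169), the smallest fall among the 44. NUSAP1 did not pass the filter (at most 0.606 CPM) and PRC1 fell from 2.46 ± 0.532 CPM. In GENCODE 29, 62.2% of NUSAP1's and 57.6% of PRC1's exon bases are shared with other genes on the same strand, so their levels may be undercounted, which was not tested.

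Early cell cycle genes, which E2F and DREAM control at the G1/S transition, also mostly fell. Of 34 tested, 25 were lower and 1 higher, against 19.3% and 18.5% of all tested genes, with a median log2 fold change of -0.35. DBF4, the activating subunit of the CDC7 kinase, fell 2.30-fold, from 41.2 ± 6.76 to 17.9 ± 0.601 CPM (edgeR adjusted p = 7.84e-07). On the log2 scale POLA1 (DNA polymerase alpha) fell by 0.84, the ribonucleotide reductase subunit RRM1 by 0.72, the fork protein TIMELESS by 0.60 and the helicase subunit MCM6 by 0.56. CCNE1 (cyclin E1) rose, from 28.1 ± 1.92 to 35.4 ± 1.52 CPM without overlap (edgeR log2 fold change 0.34 with SE 0.09, adjusted p = 0.00587).

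The regulators were placed among these targets by their log2 fold changes. The log2 fold change of MYBL2 (0.36) was above those of all 46 tested late genes and all 34 tested early genes, CCNE1 being the closest. FOXM1, at -0.26, had fallen less than 43 of the 46 late genes, and 3 lay above it (AURKB, BIRC5 and CDC25B). Among the 34 early genes FOXM1 lay inside the range, with 23 below it and 11 above. LIN52, at -0.42, had 43 late genes below it and 3 above, and 14 early genes below it and 20 above. Over all 15911 tested genes, 79.8% had a lower log2 fold change than MYBL2 and 23.5% a lower one than FOXM1. Whether the regulators differ from their targets was not tested beyond these placements.

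**Figure D3:**
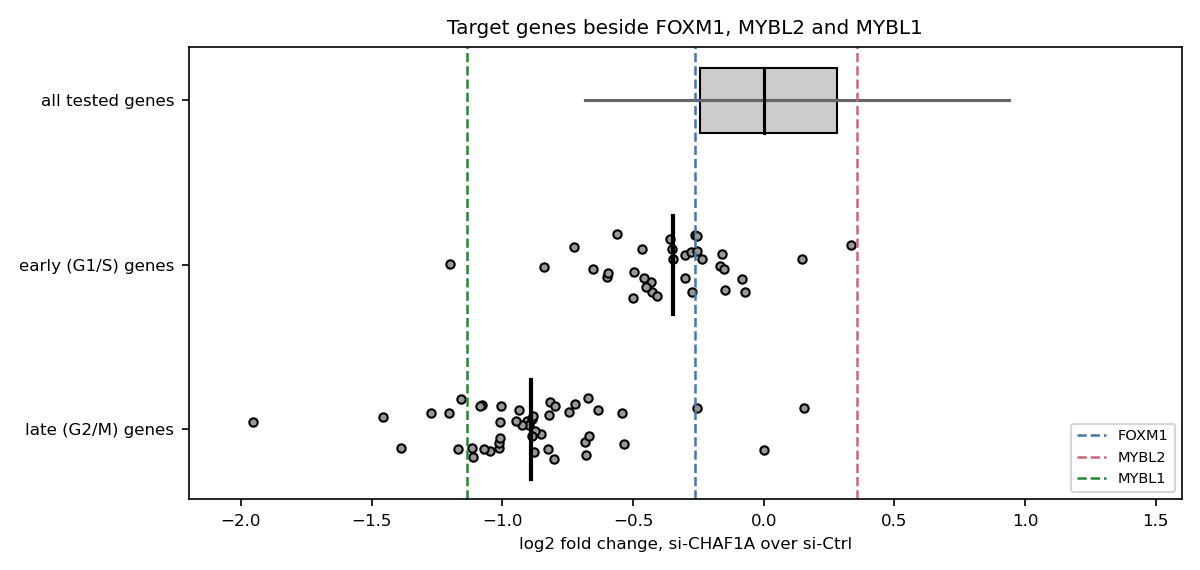
Log2 fold change of si-CHAF1A over si-Ctrl (x axis) for 46 late and 34 early cell cycle genes (points, spread vertically at random, with the median as a black bar) and for all tested genes (box from the 25th to the 75th percentile, line from the 5th to the 95th, bar at the median). Dashed lines mark FOXM1 (-0.26), MYBL2 (0.36) and MYBL1 (-1.13): MYBL2 lies to the right of every point, and the median is -0.89 for late and -0.35 for early genes.

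Of the MYB relatives of MYBL2, MYBL1 fell and MYB did not pass the test. MYBL1 (A-MYB), which recognises the same DNA sequence as MYBL2, was at 266, 221 and 271 CPM in the controls and 109, 119 and 117 CPM in the knockdown libraries. It fell 2.19-fold (edgeR log2 fold change -1.13 with SE 0.08, adjusted p = 3.28e-08), further than 39 of the 46 late genes. MYB (c-MYB) was scarce, at 1.78 ± 0.225 and 2.31 ± 0.565 CPM, with a log2 fold change of 0.39 (95% interval -0.17 to 0.95, edgeR adjusted p = 0.27), on the same side of 0 as that of MYBL2. Per length, MYBL1 was at 34.9 RPKM (30.6 to 37.4) in the controls, between MYBL2 and FOXM1, and at 15.9 ± 0.794 RPKM in the knockdown libraries, below FOXM1 at 20.7 ± 0.356 RPKM. The summed level of MYBL1 and MYBL2, chosen after the values were seen, was 94.1 ± 2.34 RPKM in control and 91.7 ± 1.01 RPKM in knockdown libraries. This sum depends on the exon lengths used, 7.239 kb for MYBL1 and 2.777 kb for MYBL2. In CPM, MYBL1 fell (253 to 115) by more than MYBL2 rose (164 to 211). Whether MYBL2 made up for MYBL1 was not tested.

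**Figure D4:**
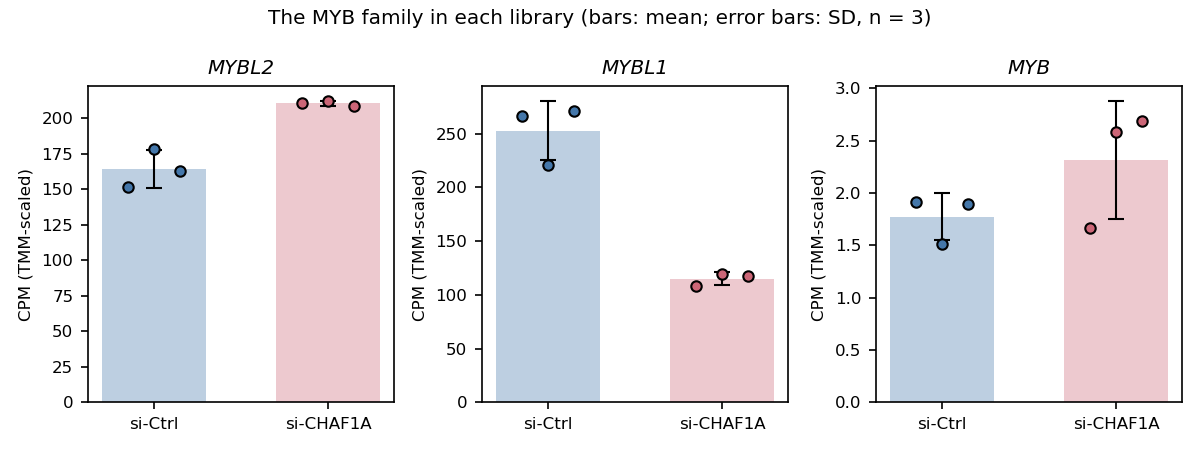
Level in CPM (y axis, from 0; each panel has its own scale) of the 3 MYB family genes in the 3 si-Ctrl and the 3 si-CHAF1A libraries; points are libraries, bars the mean and error bars the SD. MYBL2 rises from 164 to 211 CPM while MYBL1 falls from 253 to 115 CPM, and MYB stays under 3 CPM in each library.

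The forkhead relatives of FOXM1 changed in both directions. With the MYB genes, 5 of 15 listed relatives were lower and 7 higher, against 19.3% and 18.5% of all tested genes. FOXP4 rose most, from 41.7, 51.7 and 40.1 CPM to 129.5, 113 and 122 CPM (edgeR log2 fold change 1.45 with SE 0.09, adjusted p = 9.62e-09). The 3 listed FOXO factors, which compete with FOXM1 at forkhead sites, were higher: FOXO3 by 0.29, FOXO4 by 0.46 and FOXO1 by 0.31 on the log2 scale. FOXN3, a repressor of the forkhead family, rose by 0.50, FOXK2 by 0.34 and FOXJ3 by 0.22. The liver and bile duct factor FOXA2 fell by 0.43, FOXP1 by 0.33, FOXN2 by 0.31 and FOXJ2 by 0.24, while FOXA1 (-0.21) and FOXK1 (0.03) did not pass. Of 10 alternative fits, 8 kept the call on FOXO4 and 7 that on FOXJ3. The calls on FOXO1 and FOXN2 were kept in 5 each, that on FOXP1 in 4 and that on FOXJ2 in 3. The groups overlapped for FOXN2 and FOXP1. FOXA1 (-0.29) and FOXK1 (0.15) passed without si-Ctrl 2.

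Neighbouring genes were examined because FOXM1 lies close to others. RHNO1, a checkpoint protein gene on the opposite strand whose outermost start is 897 bases from that of FOXM1, fell from 38.3 ± 2.05 to 30.3 ± 1.08 CPM (edgeR log2 fold change -0.34 with SE 0.08, adjusted p = 0.00403), a change of the same direction as FOXM1's. TULP3, on the opposite strand with a start 68 bases away, stood at 0.06 (edgeR adjusted p = 0.628). ITFG2, which shares 781 exon bases (15.9%) with FOXM1 on the opposite strand, stood at -0.14 (edgeR adjusted p = 0.356). The sources used here do not say how strand was treated in counting, so reads in the shared part could belong to either gene. ALDH6A1, 303 bases from the start of LIN52 on the opposite strand, stood at 0.09, and THAP9, which overlaps LIN54 without shared exon bases, at 0.09. Neither passed the test.

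Promoter windows were found for 5 of the 6 members, MYBL2, LIN9, LIN37, LIN52 and LIN54. Words of the CHR were present in LIN9, LIN37 and LIN54. LIN54 held TTTGAA at -100 in 1 window and at -89 in the other, which overlaps it. LIN37 held TTTGAA at -182 in 1 of its windows. All 5 held the E2F core GGCGGGA in at least 1 window, as did 18.0% of all genes with a window and 29.7% of those that were tested. That word was added after the MYBL2 window had been read. LIN52 held the longer E2F word TTTCCCGC at -25, overlapping the core. None of the 9 member windows held a forkhead word (TAAACA or TGTTTA). These words were in 12.3% of all 35116 windows and 8.02% of the windows of tested genes. At such shares, absence from 9 windows does not set the members apart.

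In the target lists, 67.3% of 52 late gene windows held a CHR word, against 7.5% of 40 early gene windows and 16.4% of all windows. CCAAT stood in 76.9%, 62.5% and 34.6%, and the 8-letter E2F words (TTTGGCGC, TTTCCCGC, TTTCGCGC, TTTGCCGC) in 7.69%, 47.5% and 3.31% of the same sets. The lists were drawn from knowledge of cell cycle genes, some of which were identified by these elements, so the shares describe the lists. Among tested late genes the median log2 fold change was -0.88 with a CHR word (31 genes) and -0.95 without (10 genes). Among tested early genes it was -0.72 with a CHR word (3 genes) and -0.35 without (27 genes). Over all tested genes with a window, 464 of 1755 with a CHR word were lower (26.4%), against 1959 of 9531 without one (20.6%). Fold changes of late genes thus did not separate by the word, few early genes held it, and no test was made.

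**Figure D5:**
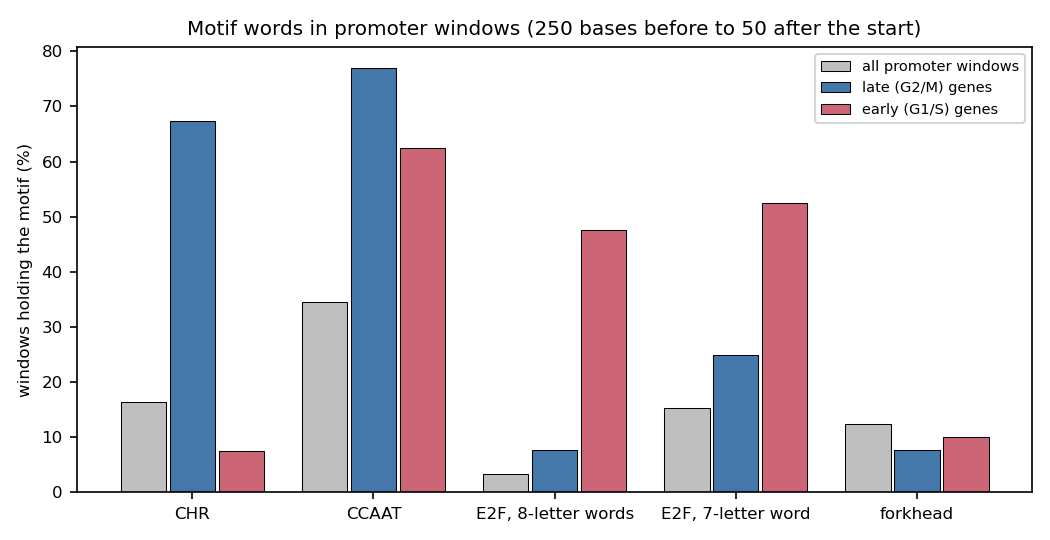
Share of promoter windows (y axis, percent, from 0) that hold each group of motif words on either strand, for all 35116 windows (grey), the 52 windows of late genes (blue) and the 40 windows of early genes (red). The CHR is in 67.3% of late and 7.5% of early gene windows, and the 8-letter E2F words are in 7.69% and 47.5%.

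Genes with the most similar profiles were sought by the Euclidean distance between log2 CPM profiles over the 6 libraries, each centred on its mean, among the 8188 named genes whose mean log2 CPM was 4 or more. Nearest to FOXM1 were XPO6 (distance 0.0409), NONO (0.0414) and MYO10 (0.045), whose log2 fold changes were -0.23, -0.28 and -0.28. Nearest to MYBL2 were BCL7B (0.0567), PROSER1 (0.0622) and FOXK2 (0.0643), at log2 fold changes of 0.35, 0.37 and 0.34. No listed late or early cell cycle gene was among these, but few genes were taken from the 8188, so their absence is not a result. LIN9 was nearest to ERI2, KIFAP3 and ZNF397, LIN54 to ADGRL2, CYTOR and TAF5L, LIN52 to MRTO4, INTS15 and SPOP, and LIN37, with its few counts, to XPA, ITFG2 and EPC1 at larger distances (0.354 to 0.452).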

How the data were processed

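Gene-level read counts, deposited by the authors as 1 table of whole numbers without normalisation, were used for 6 RNA-seq libraries of RBE cells. Per the submitters' processing notes, the tools were fastp 0.20.1, HISAT2 2.1.0, SAMtools 1.9, featureCounts 2.0.1 and StringTie 2.1.4 with build hg38; the sources used here do not give their settings, the annotation or the strand setting. Columns named NC and si were read as negative control and CHAF1A siRNA and matched to titles by number, and 0 columns belonged to other samples.

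Of 63186 genes, 15911 passed edgeR's filterByExpr (minimum count 10, minimum total 15). Groups were compared with edgeR 4.0.16 (robust quasi-likelihood test, TMM, Benjamini-Hochberg, threshold 0.05) in R 4.3.3, and DESeq2 1.42.0 served as an alternative. "Lower" and "higher" mean past that threshold. SE is the size of the log2 fold change over the square root of F. The fit was tested on simulated data. The 3 cultures a group are called biological replicates in the design text; whether they were set up independently is not stated, and p-values reflect only how these 6 samples varied. Positions, exon lengths and overlaps came from GENCODE 29 (GRCh38), promoter sequences from RefSeq (GRCh38.p14). RPKM was computed here. Intervals are 95% confidence intervals of the log2 fold change, from its SE and a t distribution. They reflect only variation between these libraries.

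The members and gene lists were chosen with earlier results of these data known. Genes were named by rule: CHAF1A, the members, all partners, modifiers and relatives; the 6 late and 5 early genes with the smallest adjusted p, with late genes not past the test and early genes that rose; genes overlapping a member or starting within 2 kb on the opposite strand; and the 3 nearest profiles per member. One gene of the modifier list (cyclins, kinases, ligase factors and inhibitors) is not reported here, and that list's counts and median leave it out. CCNB2, AURKB, PRC1 and NUSAP1 were named after their values were seen. Overlapping non-coding genes and pseudogenes without a tested level were left out. Alternatives were other size factors, DESeq2, no filter, a replicate block and leaving out each library.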

Additional observations from a re-analysis of the deposited data

How the results depend on the processing

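FOXM1 (log2 fold change -0.30 to -0.22) and MYBL2 (0.30 to 0.41) kept direction and call under all 10 alternatives (edgeR or DESeq2 adjusted p at most 0.0388 and 0.00777). Leaving out 1 library moved LIN9 between -0.21 and -0.038, LIN52 between -0.54 and -0.34, LIN54 between -0.10 and 0.091 and LIN37 between -0.56 and 0.024. Lower members then numbered 1 to 2. Lower DREAM partners numbered 0 to 1 and higher ones 0 to 2, higher late genes 0 to 1, and lower relatives 2 to 6 (3 by DESeq2). Lower late genes numbered 43 to 44 and lower early genes 21 to 28. Values near 0 changed sign as libraries were left out: RBL1 (-0.16 to 0.053), TFDP1 (-0.039 to 0.0020), E2F4 (-0.076 to 0.079), CCND3 (-0.10 to 0.020), FZR1 (-0.10 to 0.048), CDKN1A (-0.054 to 0.023), FOXK1 (-0.033 to 0.15) and BIRC5 (-0.044 to 0.040, and -0.0062 without a low-count filter). The cause was not tested. Same-numbered libraries did not deviate together (correlations -0.09, -0.06 and -0.0031), and no library correlated best with its own number. These values show no pairing by number, but cannot exclude that same-numbered cultures were set up together. With the replicate block, 2723 genes were lower and 2675 higher, against 3064 and 2944 without it, and FOXM1 stood at -0.26 and MYBL2 at 0.36. At 6 to 14 counts a library, few counts limit what can be said of LIN37, and why they were few was not tested.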
